A study of Saccharomyces cerevisiae with 4 samples.

Results

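The genes described here are 9 mitotic regulators of budding yeast (Saccharomyces cerevisiae) that are transcribed together late in the cell cycle, in the gene cluster bound by Fkh2 and Mcm1: SWI5, CDC20, CDC5, BUD4, KIN3, HST3, ALK1, MOB1 and DBF2. They were taken by gene symbol from the annotation of the array, with the B-type cyclins left out, and are 9 of the 5449 named genes measured. Each was read by 1 probe set, and all 9 passed the filter on dim signals. Their locus tags are YDR146C (SWI5), YGL116W (CDC20), YMR001C (CDC5), YJR092W (BUD4), YAR018C (KIN3), YOR025W (HST3), YGL021W (ALK1), YIL106W (MOB1) and YGR092W (DBF2).

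In dividing yeast, the forkhead factor Fkh2 and the MADS-box factor Mcm1 sit together on the promoters of this cluster, and the coactivator Ndd1 switches the genes on as cells pass from G2 into mitosis. The products then drive chromosome segregation, release the phosphatase Cdc14 and prepare cytokinesis. SAGA is a large coactivator that acetylates and deubiquitinates histones. Its integrity needs the product of HFI1 (ADA1 by its other name), and its acetyltransferase is the product of GCN5.

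Transcript levels were measured in 3 strains of the BY4742 background, a haploid laboratory strain of mating type alpha. A strain with ada1 deleted and a strain with gcn5 deleted had 1 array each, and the wild-type strain had 2. The deletions were made with a KanMX marker by homologous recombination. All strains grew with shaking at 30C in YPD, a rich glucose medium, and were harvested in exponential phase. The labels name no synchronisation of the cell cycle. In such bulk samples, fewer cells at G2-M cannot be told apart from less RNA per cell. The labels do not say whether a deletion strain is 1 clone or whether the wild-type samples are separate cultures, and the p-values therefore cover only the spread between these arrays, which may be technical.

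Signals are MAS5 intensities on a linear scale. The ada1 deletion array and the array of wild-type replicate 1 reached highest signals of 21989 and 23746, whereas the gcn5 deletion array and the array of wild-type replicate 2 reached 12244 and 11804. The medians of the 4 arrays lay between 413 and 525. The deleted genes checked the labels: HFI1 had a signal of 6.70 in the strain without it and GCN5 3.28 in the strain without it, while both together spanned 246 to 385 on the wild-type arrays. Of 6 marker genes of a cells, 0 reached the background level of 166 (set at the 20th percentile of probe sets by mean log2 signal) on any array, and their summed signals were 353 in the ada1 deletion strain, 404 in the gcn5 deletion strain and 234 and 220 in wild-type replicates 1 and 2. Of 4 marker genes of alpha cells, 3 reached it in the ada1 deletion strain and 4 on each other array, with sums of 3803 in the ada1 deletion strain, 6025 in the gcn5 deletion strain and 32273 and 25491 in wild-type replicates 1 and 2. Their part in the results below was not tested.

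SWI5 encodes a transcription factor that enters the nucleus at the end of mitosis and switches on genes of M-G1. Its signal was 268 in the ada1 deletion strain, 502 in the gcn5 deletion strain, and 237 and 349.7 in wild-type replicates 1 and 2. The ada1 deletion array lay between the wild-type arrays, and the gcn5 deletion array lay above both.

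CDC20 encodes the activator that directs the anaphase-promoting complex to securin. Its signal was 193 in the ada1 deletion strain, 243 in the gcn5 deletion strain, and 219.7 and 249.8 in wild type. CDC20 had the narrowest range of the 9 genes over the arrays, 1.29-fold, with the ada1 deletion array lowest and the gcn5 deletion array between the wild-type arrays.

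CDC5 encodes the polo kinase, which acts at mitotic entry, in anaphase and in mitotic exit. Its signal was 618 in the ada1 deletion strain, 1011 in the gcn5 deletion strain, and 665 and 902 in wild type. The deletion arrays lay on either side of the wild-type pair.

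MOB1 and DBF2 encode the activating partner and the kinase of the last step of the mitotic exit network. MOB1 gave 606 in the ada1 deletion strain, 879 in the gcn5 deletion strain, and 665 and 726 in wild type. DBF2 gave 209.6 in the ada1 deletion strain, 329 in the gcn5 deletion strain, and 296 and 389 in wild type. Both were lowest on the ada1 deletion array, and only MOB1 lay above both wild-type arrays in the gcn5 deletion strain.

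BUD4 encodes an anillin-like protein of the bud neck that marks the site of the next bud. It gave 548 in the ada1 deletion strain, 974 in the gcn5 deletion strain, and 423 and 605 in wild type. The gcn5 deletion array stood above the other 3 arrays, and the ada1 deletion array lay inside the wild-type range.

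ALK1 encodes a haspin-like protein kinase and KIN3 a kinase of the NIMA family. ALK1 gave 569.8 in the ada1 deletion strain, 913 in the gcn5 deletion strain, and 556 and 845 in wild type. KIN3 gave 185 in the ada1 deletion strain, 379 in the gcn5 deletion strain, and 193 and 335 in wild type. For both genes the ada1 deletion array lay close to wild-type replicate 1 and the gcn5 deletion array above replicate 2.

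HST3 encodes a sirtuin that removes acetyl groups from lysine 56 of histone H3. It gave 127 in the ada1 deletion strain, 295 in the gcn5 deletion strain, and 240.3 and 288 in wild type. It was the only one of the 9 genes with a signal under the background level, and that signal was on the ada1 deletion array.

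**Figure D1:**
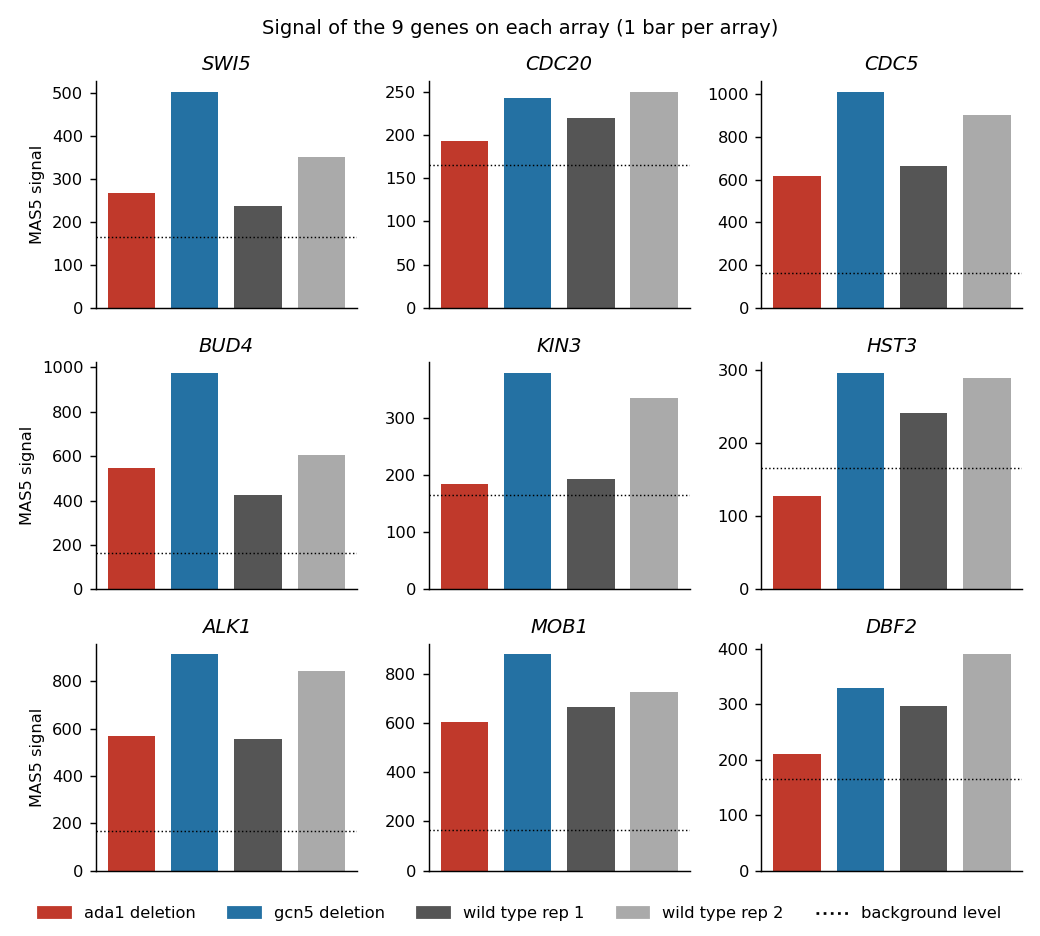
MAS5 signal (linear scale, from 0) of each of the 9 genes, with 1 bar for each array: ada1 deletion, gcn5 deletion, wild-type replicate 1 and wild-type replicate 2. The dotted line is the background level of 166; the ada1 deletion bar is lowest for CDC20, CDC5, KIN3, HST3, MOB1 and DBF2, and replicate 1 lies below replicate 2 for all 9 genes.

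The first question was how these genes read without the structural subunit of SAGA. HST3 had the largest fitted difference. Its signal was under the background level, so it is given as at least 1.59-fold lower than wild type, and its order relative to DBF2 is not settled. DBF2 was 1.62-fold lower, and the fitted differences of the other 7 genes were smaller. Of the 9 genes, 8 had a lower fitted log2 signal than wild type and 1, BUD4, a higher one, against 42.0 and 58.0 percent of the 4541 genes tested. The signals of 6 genes lay below both wild-type arrays and 0 above both, against 29.9 and 41.5 percent of all tested genes. A difference of 2-fold or more from each wild-type array was seen for 0 of 9 genes in either direction, against 3.92 percent of all genes below and 0.859 percent above.

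No member passed the test in this comparison: 0 of 9 were called higher and 0 lower at an adjusted p under 0.05 (limma), against 2.73 and 5.70 percent of all tested genes. At an unadjusted p under 0.05, 1 member (HST3) was lower and 0 were higher, against 9.16 and 7.49 percent of all genes. The log2 difference of HST3 was -1.05 ± 0.37 SE (limma, adjusted p = 0.0562). That of DBF2 was -0.69 ± 0.40 SE (limma, adjusted p = 0.407). The median of the 9 log2 differences was -0.28, with a range of -1.05 to 0.11, whereas the median over all tested genes was 0.08. The 95% interval of the difference reached from -0.87 to 0.21 for CDC5 and from -0.90 to 0.69 for SWI5. A difference of any size within these bounds is compatible with these arrays. HST3 and DBF2 passed the test once the arrays were quantile normalized or were scaled to a common median. HST3 then had adjusted p-values of 0.00513 and 0.000107, from 0.000107 to 0.134 over the 7 settings that tested it (limma). DBF2 had 0.0314 and 0.0185, from 0.0185 to 0.407 (limma).

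Without the acetyltransferase, most of the 9 genes read above wild type. BUD4 showed the largest difference, 1.93-fold higher than the wild-type mean, followed by SWI5 at 1.75-fold. KIN3 was 1.49-fold higher, but its log2 difference of 0.58 was 0.18 against replicate 2 alone and 0.97 against replicate 1 alone. The signals of SWI5, CDC5, BUD4, KIN3, HST3, ALK1 and MOB1 lay above both wild-type arrays, 7 of 9 genes, and 0 lay below both. Of all tested genes, 53.1 percent lay above both wild-type arrays and 24.9 percent below both. The fitted signal was higher for 8 of the 9 genes and lower for 1, DBF2, against 64.3 and 35.7 percent of all tested genes. A difference of 2-fold or more from each wild-type array was seen for 0 of 9 genes, against 0.903 percent of all genes above and 1.59 percent below.

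Again 0 of 9 genes were called higher and 0 lower (limma, adjusted p under 0.05), against 2.11 and 2.53 percent of all tested genes. At an unadjusted p under 0.05, SWI5 and BUD4 were higher, 2 of 9, and 0 were lower, against 9.80 and 5.15 percent of all genes. The log2 difference was 0.95 ± 0.33 SE for BUD4 (limma, adjusted p = 0.0712). It was 0.80 ± 0.40 SE for SWI5 (limma, adjusted p = 0.323). The median over the 9 genes was 0.38, with a range of -0.04 to 0.95, and the median over all tested genes was 0.15. BUD4 passed the test with quantile normalization (adjusted p = 0.0464), with scaling to a common median (0.00869) and with dim probe sets kept (0.0226), from 0.00869 to 0.2496 over 8 settings (limma). The differences of CDC20 and HST3, 0.05 and 0.17 as deposited, were negative after quantile normalization (-0.23 and -0.11) and on arrays scaled to a common median (-0.17 and -0.052).

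**Figure D2:**
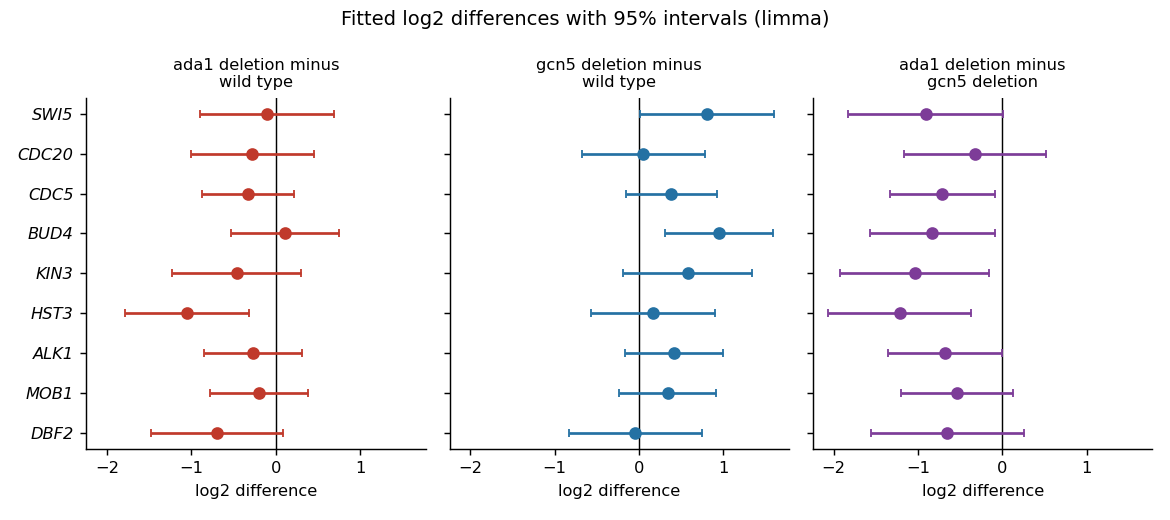
Fitted log2 difference (limma) of each of the 9 genes for ada1 deletion minus wild type, gcn5 deletion minus wild type and ada1 deletion minus gcn5 deletion. Points are estimates and bars 95% intervals. The spread is that of the trend over all tested genes in the wild-type pair, not of each gene's own replicates. In the third panel all 9 points lie below 0, from -1.22 for HST3 to -0.33 for CDC20.

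The deletion strains were then set against each other. All 9 genes were lower in the ada1 deletion strain than in the gcn5 deletion strain, by 1.25-fold (CDC20) to 2.05-fold (KIN3), with HST3 at least 1.78-fold lower because its signal in the ada1 deletion strain lies under the background level. Of all tested genes, 59.0 percent were lower and 41.0 percent higher. Read without such a bound, KIN3 and HST3 were 2-fold or more lower, and so were 4.91 percent of all tested genes. By the same reading 0 of the 9 were 2-fold or more higher, against 2.29 percent. The bound of HST3 does not reach 2-fold, and the log2 difference of KIN3 was -0.24 with the array pair as a block, against -1.04 without it. The median log2 difference of the 9 genes was -0.71, against -0.11 over all tested genes.

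None of these differences passed the test: 0 of 9 genes were called higher and 0 lower (limma, adjusted p under 0.05), against 2.004 and 4.25 percent of all tested genes. At an unadjusted p under 0.05, CDC5, BUD4, KIN3, HST3 and ALK1 were lower, 5 of 9, and 0 were higher, against 10.3 and 4.60 percent of all genes. The log2 difference was -1.22 ± 0.43 SE for HST3 (limma, adjusted p = 0.0716). It was -1.04 ± 0.45 SE for KIN3 (limma, adjusted p = 0.196). HST3 passed the test after quantile normalization (adjusted p = 0.0205) and scaling to a common median (0.00286, from 0.00286 to 0.134 over all settings; limma), and KIN3 with that scaling only (adjusted p = 0.0203, from 0.0203 to 0.211; limma).

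The order of the wild-type arrays bears on all 3 comparisons. Replicate 1 was lower than replicate 2 for all 9 genes, by 0.13 (MOB1) to 0.79 (KIN3) on the log2 scale, and 73.4 percent of all tested genes were lower in replicate 1. The median of the 9 genes was -0.44 for replicate 1 minus replicate 2, and the median over all tested genes was -0.18. Replicate 1 shares its high signal range with the ada1 deletion array, and replicate 2 its lower range with the gcn5 deletion array. The labels name no batch. Quantile normalization gives all arrays the same distribution of signals. With it, 9 of 9 genes stayed lower in the ada1 than in the gcn5 deletion strain, with a median log2 difference of -0.55, against 0.01 over all tested genes. Relative to wild type, 8 of 9 were then lower in the ada1 and 3 of 9 in the gcn5 deletion strain. Each deletion array was also set against each wild-type array, and the part of the range in the results was not tested further.

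Against replicate 1, the ada1 deletion array was lower for 6 of 9 genes, with a median log2 difference of -0.11. These 6 were CDC20, CDC5, KIN3, HST3, MOB1 and DBF2, and SWI5, BUD4 and ALK1 were higher, against 36.7 percent of all tested genes lower and 63.3 percent higher. Against replicate 2 all 9 were lower, with a median of -0.55. HST3 was lower against both, by 0.92 and 1.18 on the log2 scale, and DBF2 by 0.50 and 0.89. KIN3, in contrast, was lower by 0.06 against replicate 1 and by 0.86 against replicate 2.

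The gcn5 deletion array was above replicate 2 for 7 of 9 genes, with a median log2 difference of 0.16, and below it for CDC20 and DBF2, against 60.2 percent of all tested genes above and 39.8 percent below. Against replicate 1 all 9 were higher, with a median of 0.60. BUD4 was 1.20 above replicate 1 and 0.69 above replicate 2, and SWI5 was 1.09 and 0.52 above them. With each deletion array read relative to the wild-type array of like range, the ada1 deletion strain read below the gcn5 deletion strain for 9 of 9 genes, against 44.1 percent of all tested genes. The median log2 difference was then -0.27, with a range from -0.95 (HST3) to -0.075 (ALK1), and no test was possible, since this fit leaves no residual degree of freedom.

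**Figure D3:**
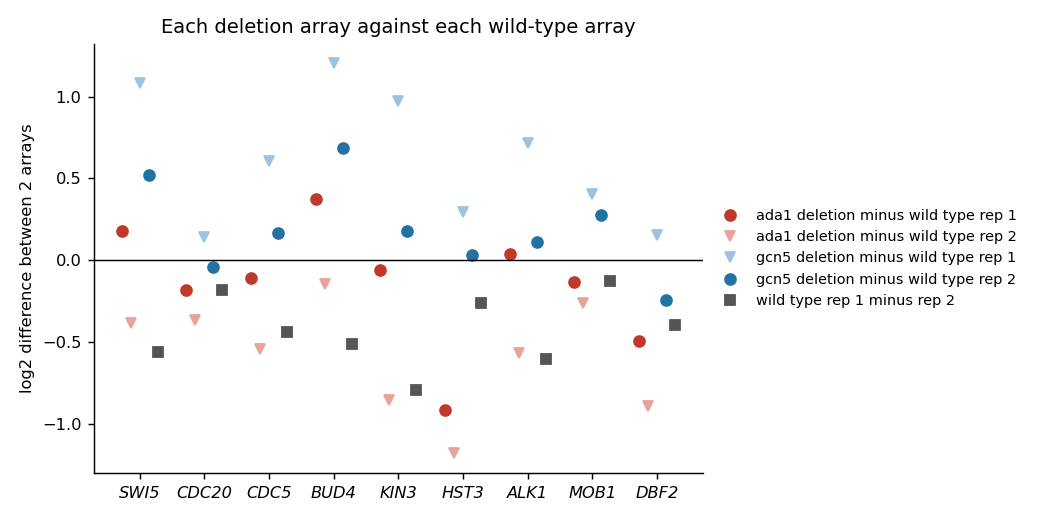
Log2 difference between single arrays for each of the 9 genes: each deletion array minus each wild-type array (circles for the wild-type array of like signal range, triangles for the other) and wild-type replicate 1 minus replicate 2 (squares). All 9 squares lie below 0, and CDC20, CDC5, KIN3, HST3, MOB1 and DBF2 have ada1 deletion points below 0 against both wild-type arrays.

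The profiles of the 9 genes over the arrays were set against their mean. After each gene was centred on its own mean log2 signal, the mean profile was -0.37 in the ada1 deletion strain, 0.39 in the gcn5 deletion strain, and -0.23 and 0.21 in wild-type replicates 1 and 2. CDC5 followed it most closely, with a root mean square difference of 0.020 over the 4 arrays, and HST3 (0.29) and BUD4 (0.26) least closely. The median of this distance over all tested genes was 0.33, but the 9 genes make up the mean themselves, so their distances are small in part by construction and are no test of likeness. The distance of HST3 rests on a signal under the background level. The order of the arrays from low to high was ada1 deletion, replicate 1, replicate 2, gcn5 deletion for CDC5, KIN3, HST3 and MOB1. SWI5, BUD4 and ALK1 had replicate 1 lowest, and CDC20 and DBF2 had replicate 2 highest. The ada1 deletion array was the lowest of the 4 for 6 of 9 genes, against 25.1 percent of all tested genes, and the gcn5 deletion array the highest for 7 of 9, against 40.3 percent. Both held for 4 of 9 genes, against 10.5 percent.

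Ranges over the 4 arrays went from 1.29-fold for CDC20 and 1.45-fold for MOB1 to 2.30-fold for BUD4, with HST3 at least 1.78-fold, where the median over all tested genes was 1.53-fold. Among the 5 genes with profiles nearest to the mean of the 9 were SEY1 (0.031 root mean square log2 difference over 4 arrays), NNT1 (0.031), MRPS16 (0.037) and GIS1 (0.039). SEY1 gave 855 in the ada1 deletion strain, 1377 in the gcn5 deletion strain, and 941 and 1242 in wild type. Of the named 4, NNT1 was called lower in the ada1 than in the gcn5 deletion strain (limma, adjusted p = 0.0453, from 0.0443 to 0.436, a call made in 2 of 8 settings). With 4 arrays such a likeness describes these arrays only.

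The factors that act on the cluster were read next. MCM1 fell in the ada1 deletion strain: it gave 228 there, 677 in the gcn5 deletion strain, and 478 and 687 on the wild-type arrays. Its log2 difference from wild type was -1.33 ± 0.38 SE (limma, adjusted p = 0.00763), and from the gcn5 deletion strain -1.57 ± 0.43 SE (limma, adjusted p = 0.00734). Both calls ended with dim signals raised to the background level, at adjusted p-values of 0.109 (from 3.58e-08 to 0.109 over all settings) and 0.128 (from 2.47e-06 to 0.128, limma). Every MCM1 signal lies above that level of 166, and its log2 differences stayed at -1.33 and -1.57. In that setting the prior degrees of freedom of the fit were 8.44 rather than infinite. FKH2 gave 120.2 in the ada1 deletion strain, 215 in the gcn5 deletion strain, and 149 and 215 in wild type, without a call. Its signals in the ada1 deletion strain and in replicate 1 lie under the background level, which limits what the missing call shows. NDD1 gave 333 in the ada1 deletion strain, 539 in the gcn5 deletion strain, and 317 and 390.0 in wild type, again without a call. FKH1 gave 252 in the ada1 deletion strain, 345 in the gcn5 deletion strain, and 264 and 297 in wild type, and was not called. YHP1, a homeodomain repressor that acts with Mcm1, was lower in the ada1 than in the gcn5 deletion strain (173 against 508; adjusted p = 0.0171, from 1.15e-05 to 0.0486 over 7 settings, limma). Of the 10 regulators tested, 1 fell in the ada1 deletion strain and 0 rose, beside 5.70 and 2.73 percent of all tested genes, and 0 were called in the gcn5 deletion strain (limma), with medians of -0.27 and 0.25. YHP1 was also called lower in the ada1 deletion strain relative to wild type with quantile normalization and on median-scaled arrays (adjusted p from 0.000705 to 0.192 over 7 settings), and CDC28 was called lower in the gcn5 deletion strain on median-scaled arrays (from 0.0185 to 0.665; limma).

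Paralogs of the members had no calls in any comparison (0 of the 5 measured, out of 6 listed, limma). This is near the share over all tested genes, at most 5.70 percent in either direction. The measured paralogs were ALK2 (372 in the ada1 deletion strain, 515 in the gcn5 deletion strain, 339 and 439 in wild type), HST4, DBF20, CDH1 and MOB2. The paralog of SWI5 matched no probe set by symbol and has no value here. HST4, the paralog of HST3, gave 205 in the ada1 deletion strain, 182 in the gcn5 deletion strain, and 236 and 231 in wild type. DBF20, the paralog of DBF2, gave 223 in the ada1 deletion strain, 309.5 in the gcn5 deletion strain, and 188 and 264 in wild type. The log2 differences of these paralogs from wild type in the ada1 deletion strain were -0.19 for HST4 and -0.0020 for DBF20, beside -1.05 and -0.69 for HST3 and DBF2, and the difference between paralogs was not tested.

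Of 10 other listed genes of the CLB2 cluster 9 were analysed here and 8 tested. Of these 8, which include bud site and septation genes such as BUD3, CHS2 and MYO1, 0 were called in any comparison (limma) as deposited. At most 5.70 percent of all tested genes were called in either direction, so 0 of 8 is near that share. HOF1, which acts in cytokinesis, was called lower in the ada1 than in the gcn5 deletion strain with quantile normalization, with median scaling and with dim signals raised to the background level (adjusted p from 0.0114 to 0.149 over all settings; limma). The median log2 difference of the 8 was -0.07 in the ada1 deletion strain and 0.46 in the gcn5 deletion strain. The mitotic cyclin gene CLB1, which shares this regulation, gave 104 in the ada1 deletion strain, 1966 in the gcn5 deletion strain, and 629 and 791 in wild type. It fell in the ada1 deletion strain, at least 4.26-fold, and rose in the gcn5 deletion strain by 1.48 ± 0.34 SE on the log2 scale (limma, adjusted p = 0.000839, from 2.11e-07 to 0.0599 over all settings). With dim signals raised to the background level the rise stayed at 1.48, with an adjusted p of 0.0599 (limma). CLB2 gave 124 in the ada1 deletion strain, 264 in the gcn5 deletion strain, and 235 and 363 in wild type. It fell in the ada1 deletion strain (limma, adjusted p = 0.0160, from 2.84e-06 to 0.149 over all settings). Its signal there lies under the background level, so the fall is given as at least 0.82 on the log2 scale. In the gcn5 deletion strain CLB2 was not called, with a log2 difference of -0.15, opposite in sign to that of CLB1. CLB1 and CLB2 were 2 of 4 B-type mitotic cyclin genes tested, and CLB3 and CLB4 were not called relative to wild type as deposited (limma).

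Of 12 tested genes listed with the mitotic exit network of MOB1 and DBF2, 0 were called in any comparison as deposited (limma), with medians of 0.07 without ada1 and 0.35 without gcn5. For this list and those below, 5.70 percent of all tested genes were called lower and 2.73 percent higher in the ada1 deletion strain. The shares were 2.53 and 2.11 percent in the gcn5 deletion strain, and 4.25 and 2.004 percent between the deletion strains. On arrays scaled to a common median, SLK19 was called higher in the ada1 deletion strain (adjusted p = 0.00156, from 0.00156 to 0.152 over all settings) and in the gcn5 deletion strain (0.0101, from 0.0101 to 0.175), and SPO12 lower in the ada1 than in the gcn5 deletion strain (0.0454, from 0.0454 to 0.330; limma). Of 11 tested genes of the anaphase-promoting complex and its pathway, which CDC20 activates, 1 fell in the ada1 deletion strain, the subunit gene SWM1, which was at least 2.30-fold lower (159.7, against 383 and 379 on the wild-type arrays; limma, adjusted p = 0.0258, from 1.13e-06 to 0.05004 over 7 settings). The securin gene PDS1 was lower in the ada1 than in the gcn5 deletion strain (177 against 454; limma, adjusted p = 0.0428, from 0.000346 to 0.0780). Of 6 tested spindle checkpoint genes, MAD3 rose at least 1.54-fold in the ada1 deletion strain (255, against 109 and 142 on the wild-type arrays; limma, adjusted p = 0.0275, from 0.000295 to 0.0941) and 0 were called in the gcn5 deletion strain. Scaling to a common median added MAD1 as higher in the ada1 deletion strain, and MPS1, BIR1 and PDS1 as higher and APC11 as lower in the gcn5 deletion strain, APC11 also with quantile normalization. Of 8 septin and bud neck genes, which BUD4 joins, 1 rose in the gcn5 deletion strain, CDC3 (1646, against 879.6 and 1161 on the wild-type arrays; limma, adjusted p = 0.0394, a call kept in 2 of 8 settings), while that scaling called SHS1 higher in the ada1 and AXL2 lower in the gcn5 deletion strain.

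Genes that Swi5 and its paralog switch on at M-G1 were read beside SWI5. The gene of that paralog matched no probe set by symbol, so its own level could not be read. Of 16 tested, 13 fell in the ada1 deletion strain and 0 rose, with a median log2 difference of -1.29, whereas in the gcn5 deletion strain 1 fell (SCW11, a call kept in 5 of 8 settings) and 0 rose, with a median of -0.21. RME1, a repressor of meiosis, fell by 2.28 on the log2 scale, and the chitinase gene CTS1 by 2.01, DSE3 by 1.94 and AMN1 by 1.91 (limma, adjusted p at most 2.21e-06). ASH1, chosen here after its values were seen because it is a known target of Swi5, gave 333 in the ada1 deletion strain, 982 in the gcn5 deletion strain, and 1255 and 1179 in wild type. In the ada1 deletion strain, SWI5 itself had a log2 difference of -0.10 ± 0.40 SE from wild type (limma, adjusted p = 0.974). Among the 13, the calls of CDC6, PCL2 and DSE1 ended under 1 or more other settings. Outside the 13, SIC1 and PCL9 were called lower in the ada1 deletion strain with quantile normalization and on median-scaled arrays, and PIR1 with quantile normalization (limma). PCL9 was also called lower in the gcn5 deletion strain on median-scaled arrays (limma).

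Other stages of the cell cycle were read from 2 lists. Of 17 G1-S genes, 4 (CLB6, RNR1, CLN1 and POL30) fell in the ada1 deletion strain and 0 rose, against 5.70 and 2.73 percent of all tested genes. The median of the 17 was -0.36. CLN2 and CLB5 were also called lower there with quantile normalization and on arrays scaled to a common median, and CLN2 with dim probe sets kept (limma). In the gcn5 deletion strain 0 were called as deposited (limma), against 2.53 percent of all genes lower and 2.11 percent higher, with a median of 0.15. On arrays scaled to a common median, CLN1, CLB6 and RNR1 were called lower and PCL1 higher in the gcn5 deletion strain, and RNR1 also with the filter at the 40th percentile. RNR1, the large subunit gene of ribonucleotide reductase, gave 854 in the ada1 deletion strain, 1678 in the gcn5 deletion strain, and 2717 and 2367 on the wild-type arrays, while the calls of CLN1 and POL30 were kept in 4 of 8 settings each. Of 8 early cell cycle box genes, which Mcm1 controls at M-G1, FAR1 and MCM7 fell in the ada1 deletion strain and FAR1 in the gcn5 deletion strain (limma). MCM3 was called lower in the ada1 deletion strain with quantile normalization and on arrays scaled to a common median (limma). The call of MCM7 ended with dim signals raised to the background level, as did that of CLB6. In that setting the prior degrees of freedom of the fit were 8.44 rather than infinite. Between the deletion strains the log2 difference of MCM7 was -1.26 both there and with the filter at the 40th percentile, which raises no signal. The log2 difference of CLB6 from wild type in the ada1 deletion strain, in contrast, was -2.62 as deposited and -1.16 in that setting.

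**Figure D4:**
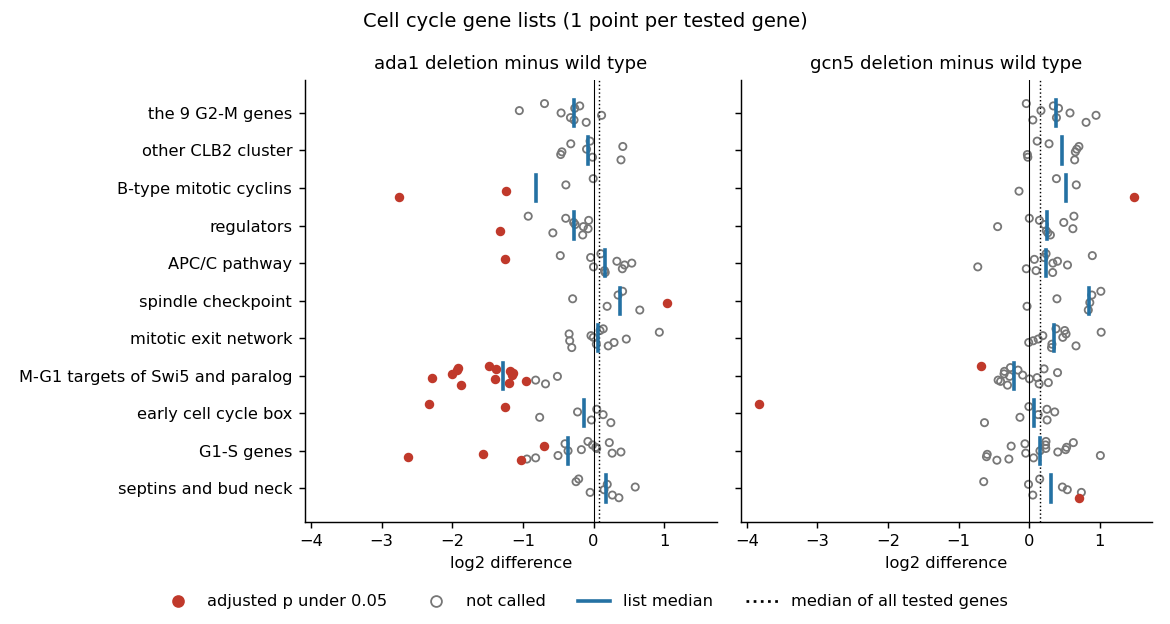
Fitted log2 difference from wild type (limma) of each tested gene in 11 cell cycle lists, in the ada1 deletion strain (left) and the gcn5 deletion strain (right). Filled red points passed the test at an adjusted p under 0.05, blue bars are list medians and the dotted line is the median over all tested genes (0.08 left, 0.15 right); none of the 9 G2-M genes is filled, and 13 of 16 M-G1 targets are filled on the left.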

How the data were processed

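RNA of 4 samples was labelled with biotin and hybridised to Affymetrix arrays, per the labels' protocols. The deposited table holds 1 intensity for each probe set, made with MAS5 (per the submitters' processing notes), on a linear scale. Neither its version nor its scaling target is given in the sources used here. Of 5716 probe sets, 5498 had 1 gene symbol, 0 several and 218 none, and 12 symbols were updated through RefSeq (R64). Where a gene had several probe sets, the brightest by mean log2 signal was used.

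The 4541 genes and unnamed probe sets at or above the 20th percentile of mean log2 signal (166, used as the background level) were tested with limma 3.58.1 in R 4.3.3 (lmFit, eBayes with trend) on log2 signal, with 3 groups in 1 fit and Benjamini-Hochberg adjustment over all of them. The wild-type pair gave the 1 residual degree of freedom, so the lone deletion arrays are assumed to vary as wild type does. The prior degrees of freedom were infinite, which gives each gene the spread of the trend. A group wholly below the background level gives a bound ("at least N-fold") against that level. Precision is limited by the number of arrays. The fit was tested on simulated data with equal spread on every array and no difference in signal range, so the simulation does not test those points.

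Relative to wild type, 124 genes were called higher and 259 lower in the ada1 deletion strain, a split that became 296 to 396 on arrays scaled to a common median. The numbers were 96 and 115 in the gcn5 deletion strain (162 and 314 when scaled, 111 and 215 when quantile normalized) and 91 and 193 between the deletion strains (300 and 261, and 254 and 257). Scaling shifted the median log2 difference of all tested genes to 0.06, -0.06 and 0.09, against 0.08, 0.15 and -0.11 as deposited.

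The 9 genes and all lists were chosen with earlier results of these data known. Named genes are the 9, the deleted genes, paralogs, FKH1, FKH2, MCM1, NDD1, up to 4 called genes of each list by size of difference, and the 5 nearest profiles, of which 1 is not reported here.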

Additional observations from a re-analysis of the deposited data

How the results depend on the processing

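Normalization, the filter on dim probe sets, a pseudocount of 50, the treatment of dim signals, the variance prior and the wild-type arrays were varied. Array pairs of like signal range were added as a block after the data were seen. No paired analysis was possible because only wild type has numbered replicates. The number of the 9 genes called, 0 in each comparison, became 2 in the ada1 deletion strain, 1 in the gcn5 deletion strain and 1 between the deletion strains with quantile normalization. With scaling to a common median it was 2, 1 and 2, and with dim probe sets kept it was 1 in the gcn5 deletion strain. The filter at the 40th percentile tested only 4 of the 9 genes. Calls over all genes (383, 211 and 284) became 657, 326 and 511 with quantile normalization, 692, 476 and 561 with scaling to a common median, and 245, 123 and 187 with a single variance prior. Dim signals raised to the background level gave 106 in the gcn5 deletion strain and 135 between the deletion strains. The cause was not tested.

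With either wild-type array left out, which leaves no test, the median log2 difference of the 9 genes ranged from -0.55 to -0.11 in the ada1 deletion strain and from 0.16 to 0.60 in the gcn5 deletion strain. Signs turned in the ada1 deletion strain for SWI5 (-0.39 to 0.18), BUD4 (-0.14 to 0.37) and ALK1 (-0.57 to 0.036), and in the gcn5 deletion strain for CDC20 (-0.042 to 0.14) and DBF2 (-0.24 to 0.16). With the array pair as a block, SWI5 (0.18), ALK1 (0.036) and CDC20 (-0.042) turned likewise, and the median between the deletion strains was -0.27. In the gcn5 deletion strain CDC20 also turned with quantile normalization (-0.23) and scaling (-0.17), as did HST3 (-0.11 and -0.052). None of these differences passed the test as deposited.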
